A study of Gallus gallus with 16 samples.

Results

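Smooth muscle contractile genes encode the actin, myosin, kinase and actin-binding proteins with which smooth muscle cells shorten. In smooth muscle, calcium activates myosin light chain kinase, which phosphorylates the regulatory light chain and lets smooth muscle myosin pull on actin filaments, and much of this gene set is under the control of serum response factor (SRF) and its cofactors. In the posterior eye these cells lie in the walls of choroidal vessels and, in birds, also in the choroidal stroma outside the vessels. The genes were chosen by name, out of 8 names (ACTA2, MYH11, TAGLN, CNN1, DES, MYLK, LMOD1 and SYNPO2), where the table of read counts held a row with that symbol and at least 10 counts in at least 4 of the 16 libraries. The names, and the lists of other genes below, were chosen with earlier results of these data known. Shares of members or list genes beside those of all genes are therefore a description, not a test. The rule gave 5 members of the 11334 genes that passed this filter: MYH11 (ENSGALG00000006520), TAGLN (ENSGALG00000011902), DES (ENSGALG00000011306), MYLK (ENSGALG00000011708) and SYNPO2 (ENSGALG00000011994).

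The other 3 names did not meet the rule. LMOD1 (ENSGALG00000028721), the smooth muscle leiomodin that starts new actin filaments, reached 10 counts in 3 libraries, and CNN1, the calponin of differentiated smooth muscle, was not analysed here. No row carried the symbol ACTA2, but the row ENSGALG00000006343, with the symbol ACTG2, is described in the table as ACTA2 and its RefSeq accession is that of ACTA2. ACTA2 and ACTG2 encode the near-identical vascular and enteric smooth muscle actins, and reads that fit both, or other actins, may have been left out or placed in either. The row is therefore called ACTA2/ACTG2, is described beside the 5 members, and is not counted among them.

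RNA-seq covered the retina, retinal pigment epithelium and choroid together, from the right eye of 16 male Leghorn/New Hampshire chicks, with 4 chicks in each of 4 groups. The groups were No-Lens controls that wore no occluder, and chicks that wore a translucent occluder for 7 days from post-hatch day 5 to induce form deprivation myopia and then had 0 h, 6 h or 24 h of normal vision (FDMR 0 h, FDMR 6 h and FDMR 24 h). The labels give an age of 20 days after hatching, and 21 days for FDMR 24 h, which does not match the stated schedule. FDMR 6 h eyes were collected in the afternoon and the others in the morning, so that hour of day and recovery time cannot be told apart at 6 h, and the authors chose the 4 chicks of a group from a larger number for comparable axial length.

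Between 1553717 counts (FDMR 24 h chick 29) and 4816425 counts per chick fell on genes, with a median of 4016147. All layers were present by their markers: summed over each list and given as the lowest to highest of 16 chicks, rod genes took 2110 to 3570 CPM, pigment epithelium genes 2420 to 3340, melanocyte genes 750 to 1190 and endothelial genes 511 to 791. CPM are counts scaled to a common library size with TMM factors, with no correction for gene length, so that levels are compared between chicks and not between genes. Groups were compared with edgeR's quasi-likelihood test over all 11334 genes, and a gene is called where its p, adjusted by Benjamini-Hochberg over all of them, was below 0.05. Each chick is 1 library, and in bulk tissue fewer smooth muscle cells and less RNA per cell cannot be told apart.

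During recovery, TAGLN fell at 6 h relative to 0 h and stood at 39.6 ± 10.5 CPM at 24 h, against 45.8 ± 10.8 CPM at 0 h (SD, n = 4 each). MYLK fell at 24 h relative to 0 h, and the ACTA2/ACTG2 row fell at both 6 h and 24 h. MYH11, DES and SYNPO2 were not called in any comparison, and SYNPO2 lay between 15.9 and 27.2 CPM in all chicks. In the joint test of 6 h and 24 h against 0 h, 2 of the 5 members were called, TAGLN (adjusted p = 0.0209) and MYLK (adjusted p = 0.0378), against a background of 3.71% of all genes tested, and the ACTA2/ACTG2 row was called as well (adjusted p = 0.00297). The joint call of TAGLN was lost without FDMR 6 h chick 18, 19 or 21 or FDMR 0 h chick 12. That of MYLK was lost without FDMR 24 h chick 29 or 30, FDMR 6 h chick 18 or 21, or FDMR 0 h chick 9 or 13. Group means were highest at 0 h for MYH11, TAGLN, DES, MYLK and the ACTA2/ACTG2 row, and highest at 24 h for SYNPO2.

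**Figure D1:**
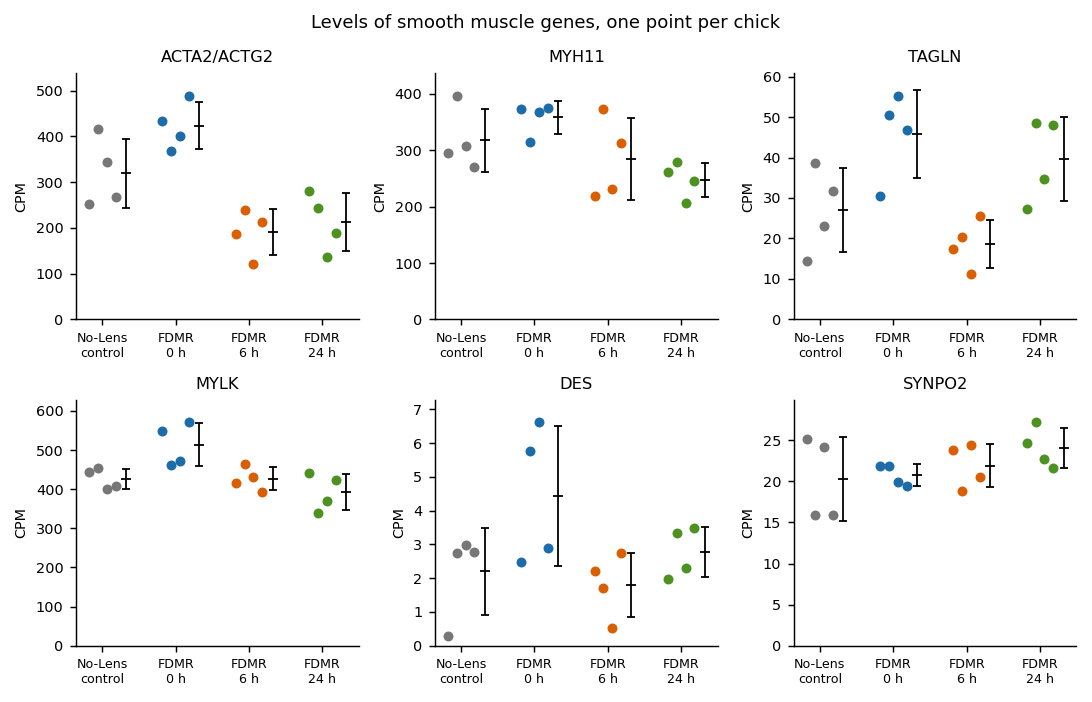
Level in CPM (y axis, from 0) of the ACTA2/ACTG2 row and the 5 members in the No-Lens control, FDMR 0 h, FDMR 6 h and FDMR 24 h groups (x axis). Each point is 1 chick, and the bar beside the points gives the mean and SD (n = 4). All 4 FDMR 6 h points of TAGLN, up to 25.6 CPM, lie below all 4 FDMR 0 h points, from 30.4 CPM.

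Among the thin filament genes, the ACTA2/ACTG2 row had 187.3, 239.5, 121.4 and 212.4 CPM in the FDMR 6 h chicks, against 434.6, 368.7, 400.4 and 489.0 CPM in the FDMR 0 h chicks. Every FDMR 6 h chick was below every FDMR 0 h chick, as for 3.26% of all genes. The row fell by 1.15 on the log2 scale (SE 0.21, adjusted p = 0.00258), to 0.45 of the 0 h level. At 24 h the chicks had 281.6, 243.8, 136.5 and 188.0 CPM, and again none reached the 0 h range (background 3.34% on the lower side). The row fell by 1.0 on the log2 scale against 0 h (SE 0.21, adjusted p = 0.0211), and this call was lost without FDMR 24 h chick 30 or 32 or FDMR 0 h chick 9, 12 or 13 (adjusted p 0.0505 to 0.0968). The difference between 24 h and 6 h was 0.15 (95% interval -0.30 to 0.60).

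Control chicks had 251.2, 415.1, 342.9 and 268.5 CPM of the ACTA2/ACTG2 row. The 0 h mean of 423.2 ± 51.5 CPM was above the control mean of 319.4 ± 75.2 CPM (SD, n = 4 each), with overlapping chicks, a difference of 0.41 on the log2 scale (95% interval -0.03 to 0.84) and no call. All 4 FDMR 6 h chicks lay below all controls (0 of 5 members, background 3.01%), with a log2 difference of -0.75 (SE 0.21) that missed the threshold (adjusted p = 0.073). It passed with the likelihood ratio test (adjusted p = 0.0185) and without FDMR 24 h chick 26 (0.05) or 30 (0.0407) or control chick 3 (0.043), the chicks of the 24 h group entering through the shared estimate of the spread. The 24 h mean of 212.5 ± 63.6 CPM differed from the control mean by -0.60 (95% interval -1.04 to -0.15, adjusted p = 0.224).

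TAGLN encodes transgelin (SM22), a calponin-like protein that binds actin filaments in smooth muscle. It had 17.4, 20.3, 11.3 and 25.6 CPM in the FDMR 6 h chicks, against 30.4, 50.6, 55.3 and 46.9 CPM in the FDMR 0 h chicks. The groups did not overlap, which held for 1 of 5 members and for 3.26% of all genes on the lower side, and FDMR 6 h chick 21 was the lowest of all 16. TAGLN fell by 1.28 on the log2 scale (SE 0.28, adjusted p = 0.01), to 0.411 of the 0 h level. It was the 1 of 5 members called lower at 6 h vs 0 h, against 1.19% of all genes tested (3.19% in either direction). The call held in each of the other settings run and without each chick in turn (adjusted p 0.000344 to 0.0456), and the group means rest on 322 counts at 6 h and 706 at 0 h.

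At 24 h, TAGLN had 27.2, 48.5, 34.7 and 48.1 CPM, each above the highest FDMR 6 h chick (1 of 5 members, background 3.02%). The difference from 6 h was 1.05 on the log2 scale (SE 0.28), a ratio of 2.07, and it narrowly missed the threshold (adjusted p = 0.0676). No member was called at 24 h vs 6 h (background 1.94% of all genes) with edgeR's quasi-likelihood test, while 1 of 5, TAGLN, had an unadjusted p under 0.05 (background 15.7%). DESeq2 (adjusted p = 0.0115) and the likelihood ratio test (0.0105) called TAGLN, and limma-voom called no member. Of all genes these tools called 340, 378 and 196, against 220 with the quasi-likelihood test. Without FDMR 24 h chick 26, FDMR 6 h chick 23 or control chick 3 the quasi-likelihood test called TAGLN too (adjusted p 0.0266 to 0.0405). Against 0 h, TAGLN at 24 h differed by -0.24 (95% interval -0.80 to 0.32).

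Control chicks had 14.5, 38.6, 23.2 and 31.8 CPM of TAGLN. Its 0 h mean of 45.8 ± 10.8 CPM stood against a control mean of 27.1 ± 10.5 CPM (SD, n = 4 each), a log2 difference of 0.74 (95% interval 0.18 to 1.30) that was not called (unadjusted p = 0.0126, adjusted p = 1.0). Against the controls, TAGLN at 6 h differed by -0.54 (95% interval -1.14 to 0.05), and at 24 h by 0.50 (95% interval -0.07 to 1.08). The spread of the control chicks was 38.6% of their mean, against 9.67% from counting alone.

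Of the motor genes, MYH11 encodes the smooth muscle myosin heavy chain, a marker of the differentiated cell. MYH11 had 260.8, 278.3, 206.9 and 244.6 CPM in the FDMR 24 h chicks, against 373.6, 315.2, 368.4 and 375.4 CPM in the FDMR 0 h chicks. The groups did not overlap, as for 2 of 5 members, MYH11 and MYLK, and for 3.34% of all genes on the lower side, and the log2 difference was -0.54 (SE 0.15, 0.688 of the 0 h level), with an adjusted p of 0.114. DESeq2 (0.0399), the likelihood ratio test (0.0322) and a fit of those 2 groups alone (0.02) placed it under the threshold. At 6 h, MYH11 spread from 218.4 to 372.9 CPM, so that FDMR 6 h chicks 19 and 23, with 372.9 and 312.4 CPM, reached or neared the 0 h range (log2 difference -0.33, 95% interval -0.64 to -0.02, adjusted p = 0.371).

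Controls had 294.6, 396.9, 308.1 and 269.9 CPM of MYH11. The 0 h mean of 358.2 ± 28.8 CPM differed from the control mean of 317.4 ± 55.4 CPM (SD, n = 4 each) by 0.17 on the log2 scale (95% interval -0.14 to 0.48). MYH11 at 24 h differed from the controls by -0.37 (95% interval -0.68 to -0.05, unadjusted p = 0.0254, adjusted p = 0.29), and at 6 h by -0.16 (95% interval -0.47 to 0.15). None of these 3 differences was called.

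MYLK encodes myosin light chain kinase, and the same gene gives a long form found outside muscle and the short smooth muscle protein telokin, which counts per gene do not separate. It had 440.0, 339.5, 370.5 and 423.2 CPM in the FDMR 24 h chicks, against 548.2, 462.4, 472.7 and 571.8 CPM in the FDMR 0 h chicks. Again no chick of one group reached the other. MYLK fell by 0.38 on the log2 scale (SE 0.09, adjusted p = 0.0405), to 0.768 of the 0 h level, and was the 1 of 5 members called lower at 24 h vs 0 h, against 0.529% of all genes tested (1.12% in either direction). The call was lost when any one of 10 chicks was left out: 29, 30 or 32 of FDMR 24 h, 18 or 21 of FDMR 6 h, 9, 12 or 13 of FDMR 0 h, and 4 or 6 of the controls (adjusted p 0.0514 to 0.157). It was also lost with limma-voom (0.0527), with only the compared groups in the fit (0.124) and with all libraries thinned to the smallest (0.0879).

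MYLK at 6 h had 416.7, 464.8, 431.8 and 393.8 CPM. Only FDMR 6 h chick 19 reached the 0 h range, and the log2 difference of -0.27 (SE 0.09) was not called (adjusted p = 0.14). Controls had 443.7, 453.7, 400.6 and 408.1 CPM, all below the 4 FDMR 0 h chicks. MYLK was the 1 of 5 members with no overlap and a higher level at 0 h vs control (background 1.06%), with a log2 difference of 0.27 (95% interval 0.08 to 0.46, unadjusted p = 0.00696, adjusted p = 1.0). The mean at 6 h, 426.8 ± 29.8 CPM, and the mean of the controls, 426.5 ± 26.1 CPM (SD, n = 4 each), differed by 0.00 (95% interval -0.18 to 0.19), and the 24 h mean of 393.3 ± 46.5 CPM differed from the controls by -0.11 (95% interval -0.30 to 0.07).

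DES encodes desmin, the intermediate filament protein of muscle cells, smooth and striated. It was counted thinly, with 31 counts over the 4 FDMR 6 h chicks and 66 over the 4 FDMR 0 h chicks. The chicks had 2.2, 1.7, 0.5 and 2.7 CPM at 6 h, against 2.5, 5.8, 6.6 and 2.9 CPM at 0 h, where chicks 10 and 12 stood above the other two. The log2 difference of -1.25 (95% interval -2.27 to -0.23) was close to that of TAGLN, but its SE was 0.49 and it was not called (adjusted p = 0.256). At 24 h the chicks had 2.0, 3.3, 2.3 and 3.5 CPM, and the controls 0.3, 2.8, 3.0 and 2.8 CPM. In the other 5 comparisons DES was not called, with log2 differences from -0.70 at 24 h vs 0 h to 0.97 at 0 h vs control and SEs from 0.48 to 0.53.

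SYNPO2 encodes synaptopodin 2 (myopodin), an actin-bundling protein of smooth and striated muscle that also binds alpha-actinin. SYNPO2 had 24.7, 27.2, 22.8 and 21.6 CPM in the FDMR 24 h chicks, against 21.9, 21.9, 19.9 and 19.4 CPM in the FDMR 0 h chicks, a log2 difference of 0.20 (95% interval -0.13 to 0.53). It had 23.8, 18.8, 24.4 and 20.6 CPM at 6 h, and 25.2, 15.9, 24.2 and 15.9 CPM in the controls, which fell into a higher and a lower pair. Over the 6 comparisons its log2 differences lay between 0.05 and 0.25, each with an interval that included 0. The intervals of the 6 h vs 0 h difference did not overlap between SYNPO2 (-0.25 to 0.40) and TAGLN (-1.86 to -0.71), although the difference between the 2 genes was not itself tested.

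LMOD1 gave 6, 6, 2 and 4 counts in the FDMR 6 h chicks (18 in all), against 9, 8, 16 and 36 in the FDMR 0 h chicks (69 in all). Every FDMR 6 h chick was below every FDMR 0 h chick in counts, and chick 13 alone gave 36 of the 69. Of all genes tested, 3.26% had no overlap on the lower side in CPM. FDMR 24 h chicks gave 3, 5, 5 and 4 counts and controls 4, 12, 9 and 8. In a fit without the filter, LMOD1 fell by 2.00 on the log2 scale at 6 h vs 0 h (SE 0.48, adjusted p = 0.0231), and with a filter at 1 CPM in 4 libraries the adjusted p was 0.0251. Its difference at 24 h vs 0 h, -1.70 (SE 0.49), was not called in the fit without the filter (adjusted p = 0.135).

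**Figure D2:**
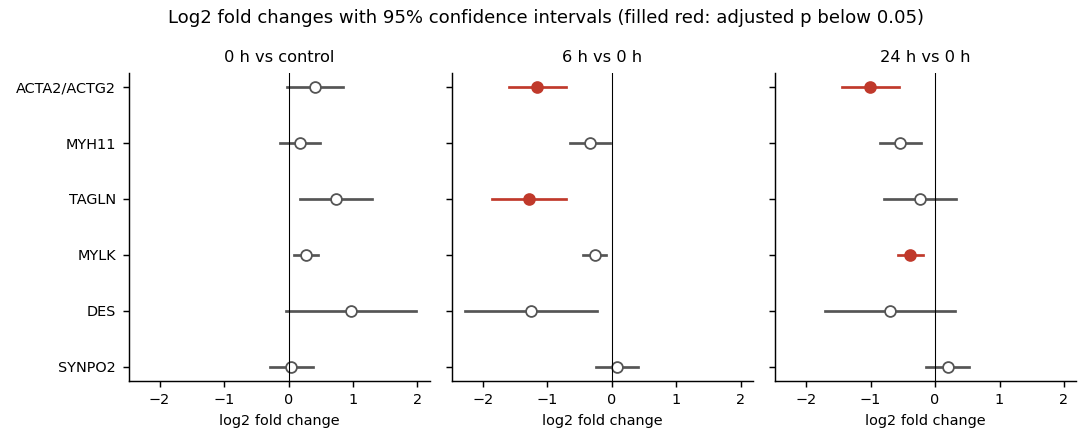
Log2 fold change (x axis) of the ACTA2/ACTG2 row and the 5 members in 3 comparisons (0 h against control, and 6 h and 24 h each against 0 h), with 95% confidence intervals from edgeR's quasi-likelihood fit. Filled red points are called: TAGLN and the ACTA2/ACTG2 row at 6 h, MYLK and the ACTA2/ACTG2 row at 24 h, and none at 0 h vs control.

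At 0 h vs control, the effect of the 7 days of occlusion, no member was called (background 0.0265% of all genes) by edgeR's quasi-likelihood test, DESeq2, the likelihood ratio test or limma-voom. Backgrounds here are those of the quasi-likelihood test, which called 3 of all genes. DESeq2 called 8, the likelihood ratio test 12 and limma-voom 2. At an unadjusted p under 0.05 there were 2 of 5, TAGLN and MYLK, against 4.01% of all genes. All 5 members had a log2 difference above 0, as had 51.5% of all genes, and their median was 0.27 against 0.00 for all genes. At 6 h vs 0 h 4 of 5 had an unadjusted p under 0.05 (background 11.7%) and the median was -0.33, against 0.00 for all genes, and at 24 h vs 0 h 2 of 5 (background 9.55%), with a median of -0.38. No member was called at 6 h vs control (background 2.74%) or 24 h vs control (background 1.33%) by any of these tools, with 0 and 1 of 5 at an unadjusted p under 0.05 (backgrounds 9.46% and 13.8%) and medians of -0.16 and 0.25. In these 2 comparisons the quasi-likelihood test called 310 and 151 of all genes and DESeq2 382 and 261. The likelihood ratio test called 397 and 298, and limma-voom 325 and 130. The comparisons with 0 h share the FDMR 0 h chicks and those with the controls share the control chicks.

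Counts relative to MYH11 in the same library describe how the genes moved against each other. This measure was chosen after the values were seen and is given with no test. The ACTA2/ACTG2 row had 0.523 to 0.857 counts per count of MYH11 in the FDMR 6 h chicks and 0.66 to 1.08 in the FDMR 24 h chicks, against 1.09 to 1.30 in the FDMR 0 h chicks, with no overlap. Controls had 0.853 to 1.11. TAGLN had 0.104 to 0.197 counts per count of MYH11 in the FDMR 24 h chicks, against 0.0488 to 0.0820 in the FDMR 6 h chicks, also with no overlap, and 0.0813 to 0.161 in the FDMR 0 h chicks. Controls had 0.0494 to 0.118 for TAGLN. SYNPO2 had 0.0884 to 0.110 in the FDMR 24 h chicks, against 0.0517 to 0.0693 in the FDMR 0 h chicks. It had 0.0505 to 0.109 in the FDMR 6 h chicks and 0.04 to 0.0855 in the controls. At 24 h vs 0 h MYH11 itself differed by -0.54 and SYNPO2 by 0.20, neither called, so that the ratio moves with both genes. The share of all genes without overlap in such a ratio was not computed.

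**Figure D3:**
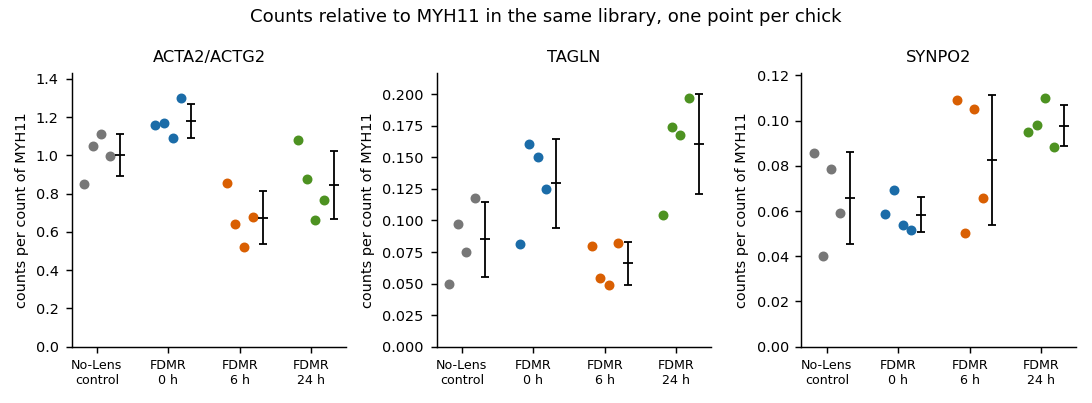
Counts of the ACTA2/ACTG2 row, TAGLN and SYNPO2 per count of MYH11 in the same library (y axis, from 0) by group (x axis). Each point is 1 chick, with the mean and SD beside it (n = 4). The ACTA2/ACTG2 points of FDMR 6 h and 24 h lie below those of 0 h, and the TAGLN points of 24 h above those of 6 h.

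Chicks also differed within a group. FDMR 6 h chick 21 was the lowest of its group for the ACTA2/ACTG2 row, TAGLN, DES and LMOD1, and control chick 4 was the highest of the controls for the ACTA2/ACTG2 row, MYH11, MYLK and TAGLN. Over the 16 chicks, log2 CPM of the ACTA2/ACTG2 row had a Pearson correlation of 0.837 with MYH11, 0.628 with MYLK, 0.514 with TAGLN, 0.479 with DES and -0.378 with SYNPO2. These values mix differences between groups with differences within them and are a description only.

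The genes most like the ACTA2/ACTG2 row, by the Pearson correlation of log2 CPM over the 16 chicks, were MRVI1 (0.895), CRISPLD1 (0.883), PODN (0.864), CCDC3 (0.859) and MXRA8 (0.828). MRVI1, known in smooth muscle as the substrate through which cGMP kinase restrains calcium release, averaged 67.4 ± 9.03 CPM in the controls, 84.1 ± 8.11 at 0 h, 32.9 ± 6.62 at 6 h and 43.0 ± 11.2 CPM at 24 h (SD, n = 4 each). PODN encodes podocan, a leucine-rich proteoglycan of the matrix, and averaged 68.5 ± 14.4 CPM in the controls, 90.2 ± 16.5 at 0 h, 48.7 ± 9.83 at 6 h and 52.6 ± 9.4 CPM at 24 h. For the mean of the 5 members the closest were CSRP1 (0.948), CAMK1 (0.872), MXRA8 (0.854), CIAO1 (0.834) and USP39 (0.831), the first a LIM protein of smooth muscle. This mean used log2 CPM centred but not scaled, so that members with a wide range, TAGLN and DES, weighed most. Both sets of genes are the highest values of a search over all named genes, and CIAO1 had a mean of only 10.2 counts.

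Of the other genes of the contractile apparatus, a list of 44, 35 were tested. At 6 h vs 0 h 3 of 35 were called, 1 higher and 2 lower, against 3.19% of all genes, with a median of -0.08 against 0.00 for all genes. At 24 h vs 0 h 1 of 35 was called, lower, against 1.12% of all genes. CSRP1 had 13.7, 16.9, 13.6 and 18.5 CPM in the FDMR 6 h chicks, against 21.3, 31.1, 37.4 and 30.6 CPM in the FDMR 0 h chicks, with no overlap (background 3.26% on the lower side). It fell by 0.93 on the log2 scale (SE 0.22, adjusted p = 0.0225). SYNPO2L, the paralog of SYNPO2 known from striated muscle, had 10.5, 11.1, 14.1 and 16.7 CPM at 6 h, against 23, 30.2, 21.0 and 24.6 CPM at 0 h, and fell by 0.91 (SE 0.18, adjusted p = 0.00591). At 24 h SYNPO2L had 26.5, 33.9, 34.9 and 28.3 CPM and was higher than at 6 h by 1.22 (SE 0.18, adjusted p = 0.00109), whereas SYNPO2 had a difference of 0.12 in that comparison.

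In the same list, CSRP2, another LIM protein of smooth muscle, rose by 0.39 at 6 h vs 0 h (adjusted p = 0.0249) and by 0.44 at 6 h vs control (adjusted p = 0.0106). SYNPO2L fell by 0.88 at 6 h vs control (adjusted p = 0.00917). ACTN1, an alpha-actinin of smooth muscle and non-muscle cells that cross-links actin, was called lower at 24 h in each comparison: by 0.52 against 6 h (adjusted p = 0.000448), 0.35 against 0 h (0.0157) and 0.37 against the controls (0.0081). Its 4 FDMR 24 h chicks had 225 to 236 CPM, below all other chicks, which had 272 to 340. The share of all genes for which this held was not computed.

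MYL9, CALD1, TPM1, SMTN and VCL were not called in any comparison. MYL9, the regulatory light chain that MYLK phosphorylates, averaged 27.8 ± 1.49 CPM at 6 h and 41.3 ± 7.0 CPM at 0 h (SD, n = 4 each). The groups did not overlap (background 3.26% on the lower side), with a log2 difference of -0.57 (SE 0.21, adjusted p = 0.235). CALD1 (caldesmon) differed by -0.27 (adjusted p = 0.579), TPM1 (tropomyosin) by 0.04 (0.956), SMTN (smoothelin, a marker of contractile smooth muscle) by 0.53 (0.517) and VCL (vinculin, which anchors actin at the membrane) by -0.21 (0.563) at 6 h vs 0 h. At 24 h vs 0 h their differences were 0.00 for MYL9, -0.43 for CALD1, 0.21 for TPM1, 0.07 for SMTN and -0.36 for VCL (adjusted p 0.247 to 0.999). SMTN and TAGLN thus had opposite signs at 6 h vs 0 h, and only that of TAGLN was called.

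Of 43 genes of contraction signalling, 34 were tested and 2 were called, both lower at 6 h vs 0 h, where 3.19% of all genes were called and 1.19% were called lower. KCNMB1 (symbol CO6 in the table), the smooth muscle beta subunit of the calcium-activated potassium channel, gave 2, 8, 1 and 2 counts in the FDMR 6 h chicks, against 13, 13, 9 and 13 in the FDMR 0 h chicks. It fell by 2.00 on the log2 scale (SE 0.52, adjusted p = 0.0392), on counts low enough that counting error is large. Only FDMR 0 h chicks 9, 10 and 13 and FDMR 24 h chick 26 reached 10 counts of it. KCNMB1 thus passed the filter mostly through the group in which it was high, which limits the weight of this call. GNA13, a G protein subunit that acts through RhoA, fell by 0.46 (SE 0.10, adjusted p = 0.0162), with 82.1 ± 5.4 CPM at 6 h and 113 ± 12.7 CPM at 0 h (SD, n = 4 each). There was no call among the 34 in the other 5 comparisons.

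Of 27 genes of SRF and its cofactors, with known targets of the MRTF cofactors, 22 were tested, and 2 were called at 6 h vs 0 h (background 3.19%) and 1 at 24 h vs 0 h (background 1.12%). SRF itself averaged 13.9 ± 0.837 CPM at 6 h and 16.7 ± 5.39 CPM at 0 h (SD, n = 4 each) and was not called (log2 difference -0.26, adjusted p = 0.797). MYOCD, the muscle-restricted cofactor of SRF, had 0 to 3 counts per chick and was not tested. MEF2C, a transcription factor of muscle and neurons, fell by 0.42 at 6 h vs 0 h (adjusted p = 0.0215) and rose by 0.41 at 24 h vs 6 h (adjusted p = 0.0389). CCN2 (CTGF in the table), a secreted matrix protein induced by MRTF and YAP, had 218, 224, 245 and 242 CPM in the FDMR 6 h chicks, against 107, 116, 86.1 and 99.7 CPM in the FDMR 0 h chicks. It rose by 1.18 (SE 0.13, adjusted p = 1.52e-05), and by 1.03 at 24 h vs 0 h (adjusted p = 0.00047), the opposite direction to TAGLN and the ACTA2/ACTG2 row at 6 h. CCN2 did not stand for its list: of the 22 genes tested, 6 were higher and 16 lower at 6 h vs 0 h (median -0.08). At 24 h vs 0 h 10 were higher and 12 lower (median -0.02).

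Across the alternatives and with each chick left out, CCN2 in its 4 called comparisons, and SYNPO2L and ACTN1 at 24 h vs 6 h, kept their calls in all 24 settings. ACTN1 at 24 h vs 0 h was lost in 3, without FDMR 24 h chick 30 or 32 or FDMR 0 h chick 13 (adjusted p 0.051 to 0.0735), and at 24 h vs control in 1, with only the compared groups (0.0603), and SYNPO2L at 6 h vs 0 h in 1, with thinned libraries (0.0519). CSRP1 was lost in 7 of 24, with thinned libraries and without FDMR 6 h chick 18, 19 or 21 or FDMR 0 h chick 10, 12 or 13 (adjusted p 0.0533 to 0.107). CSRP2 at 6 h vs 0 h was lost in 5, without FDMR 6 h chick 18, 19 or 23 or FDMR 0 h chick 10 or 12 (0.055 to 0.117), and at 6 h vs control in 1, without FDMR 6 h chick 18 (0.0542), and GNA13 in 4, without FDMR 6 h chick 19 or 23 or FDMR 0 h chick 9 or 12 (0.0512 to 0.066). KCNMB1 was tested in 19 settings, as it was below the filter in the others. Its call was lost in 7 of the 19, all with a chick left out: FDMR 24 h chick 32, FDMR 6 h chick 18, 21 or 23, FDMR 0 h chick 12, or control chick 4 or 6 (0.0513 to 0.13). MEF2C was lost in 5 of 24 at 6 h vs 0 h (0.0533 to 0.229) and in 11 of 24 at 24 h vs 6 h (0.0517 to 0.154).

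**Figure D4:**
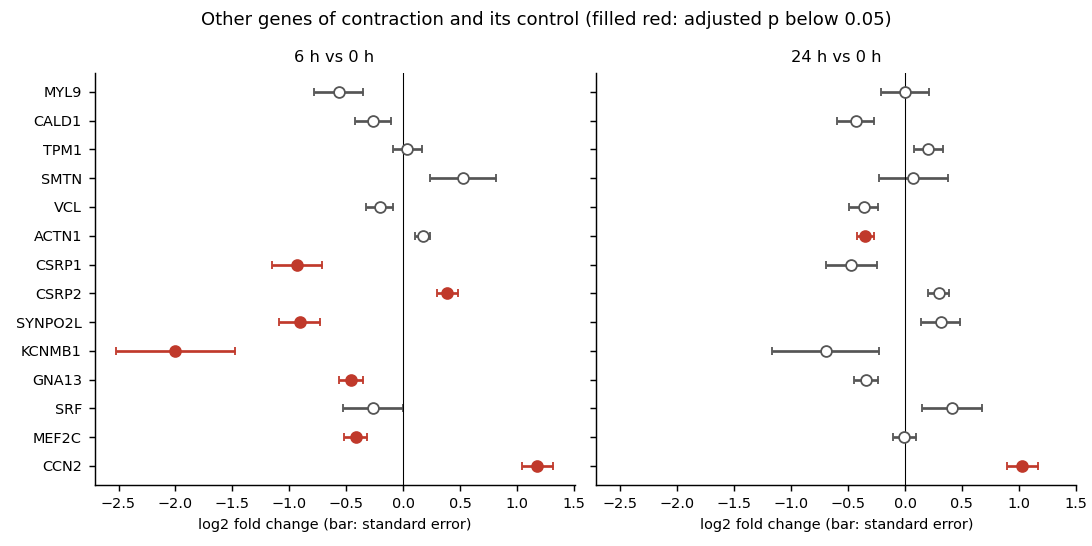
Log2 fold change (x axis) of 14 other genes of the contractile apparatus, contraction signalling and SRF control at 6 h and at 24 h, each against 0 h, with the standard error as bars. Filled red points are called: CSRP1, SYNPO2L, KCNMB1, GNA13 and MEF2C lower and CCN2 and CSRP2 higher at 6 h, ACTN1 lower and CCN2 higher at 24 h.

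Markers of neighbouring cell types are given for the comparisons in which members were called. At 6 h vs 0 h the 7 pericyte rows summed to 139.7 to 194.0 CPM against 128.6 to 193.7 CPM, and the 10 endothelial rows to 575.8 to 739.8 CPM against 598.3 to 737.1 CPM, so that both overlapped. PDGFRB, the pericyte receptor for PDGF-B, rose by 0.78 (adjusted p = 0.0478), a call lost in 18 of 24 settings (0.0502 to 0.27). It was the 1 of 7 pericyte genes called (background 3.19%), and of the 7 genes 4 were higher and 3 lower. No endothelial gene of 9 tested was called (background 3.19%). The 22 striated muscle rows summed to 320.0 to 393.0 CPM at 6 h against 289.3 to 309.8 CPM at 0 h, mostly from ACTN2, which rose by 0.36 (adjusted p = 0.00412), while TNNT2 was at 0 in all libraries. ACTN2 was the 1 of 10 striated muscle genes called (background 3.19%), and of the 10 genes 6 were higher and 4 lower. The 6 rod rows had 2110 to 2571 CPM at 6 h against 2695 to 3012 CPM at 0 h, and the 4 bipolar rows 603.4 to 638.3 CPM against 656.4 to 751.1 CPM, both without overlap. Other sums overlapped: amacrine 2353 to 2611 against 2328 to 2588 CPM, and Mueller glia 3159 to 3640 against 3378 to 3811. So did pigment epithelium, 2425 to 2854 against 2704 to 2822, and melanocyte, 749.8 to 919.3 against 897.2 to 1028. Single genes without overlap on the lower side made up 3.26% of all genes, and no share was computed for sums without overlap. PDE6B, a subunit of the rod phosphodiesterase, fell by 1.24 (adjusted p = 1.38e-07). It was the 1 of 6 rod genes called (background 3.19%), and of the 6 genes 1 was higher and 5 lower. In the pigment epithelium LRAT, which esterifies retinol, fell by 0.95 (adjusted p = 3.4e-06), SLC16A8 (symbol SLC16A3 in the table), a lactate transporter, fell by 0.35 (adjusted p = 0.0382) and RGR, a retinal-binding opsin, rose by 0.40 (adjusted p = 0.023). Of 8 pigment epithelium genes 1 was called higher and 2 lower (background 3.19% in either direction), and 3 were higher and 5 lower by sign. PDGFRA, a receptor of fibroblasts, rose by 0.68 (adjusted p = 0.00342), as 1 of 7 connective tissue genes called (background 3.19%). Of that list, 3 genes were higher and 4 lower. Its rows summed to 600.0 to 911.9 CPM at 6 h against 630.9 to 757.5 CPM at 0 h, with overlap. The calls of PDE6B, LRAT and PDGFRA held in all 24 settings, and those of SLC16A8 and RGR were lost in 8 and 6. Their part in the results of the members was not tested.

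At 24 h vs 0 h the endothelial sum was 510.9 to 590.6 CPM against 598.3 to 737.1 CPM, without overlap. In this sum VWF alone averaged 104 CPM at 24 h and 186 CPM at 0 h. Of the 9 endothelial genes tested, 2 were higher and 7 lower, with a median of -0.13 against 0.00 for all genes. VWF and FLT1, markers of vessel lining, were 2 of 9 called, both lower, against 0.529% of all genes called lower (1.12% in either direction). VWF fell by 0.83 (adjusted p = 0.0305) and FLT1 by 0.89 (adjusted p = 0.031), calls lost in 7 and 9 of 24 settings. VWF was also lower at 24 h than at 6 h, by 1.19 (adjusted p = 0.00143), a comparison in which TAGLN was not called (adjusted p = 0.0676). Pericyte rows summed to 121.1 to 182.0 CPM at 24 h against 128.6 to 193.7 CPM at 0 h, with none of 7 called (background 1.12%). Among 7 connective tissue genes, PDGFRA rose by 0.83 (adjusted p = 0.00253) and LUM (lumican) fell by 1.71 (adjusted p = 0.0176), the second a call lost in 6 of 24 settings (0.0514 to 0.082). These were the only calls in that list (background 1.12%), in which 5 genes were higher and 2 lower (median 0.50). Its rows summed to 755.3 to 1132 CPM at 24 h against 630.9 to 757.5 CPM at 0 h, with overlap. The 8 pigment epithelium rows had 2832 to 3344 CPM at 24 h against 2704 to 2822 CPM at 0 h, without overlap. The 22 striated muscle rows had 323.6 to 363.4 CPM against 289.3 to 309.8 CPM, also without overlap. No share was computed for sums without overlap, while 3.34% of single genes had none on the lower side. Most of the striated sum was ACTN2, with a mean of 268 CPM at 24 h and 219 CPM at 0 h. ACTN2 was not called there (adjusted p = 0.0595). Of the 10 striated muscle genes tested, 4 were higher and 6 lower. RGR rose by 0.44 (adjusted p = 0.0247) and MITF, a transcription factor of pigment cells, fell by 0.32 (adjusted p = 0.031), calls lost in 7 and 9 of 24 settings. Of the 8 pigment epithelium genes, RGR among them, 7 were higher and 1 lower, and 1 was called (background 1.12%). Of the 7 melanocyte genes, MITF among them, 4 were higher and 3 lower, and 1 was called. Their rows summed to 963.3 to 1188 CPM at 24 h against 897.2 to 1028 CPM at 0 h, with overlap. The rod, amacrine, bipolar and Mueller glia sums overlapped as well. Whether these shifts bear on MYLK or the ACTA2/ACTG2 row was not tested.

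In the comparisons in which no member was called, these lists held further called genes. Relative to 6 h, LRAT at 24 h rose by 1.0 (adjusted p = 9.65e-06), PDE6B by 0.91 (1.91e-05) and TYRP1, a melanin enzyme, by 0.49 (0.0496), and FLT1 fell by 1.04 (0.00717) and LUM fell by 1.47 (0.0372). In that comparison 6 of 7 connective tissue genes were higher and 1 lower, and of 9 endothelial genes 4 were higher and 5 lower. Of 7 melanocyte genes 4 were higher and 3 lower, of 8 pigment epithelium genes 7 and 1, and of 6 rod genes 5 and 1. Called were 1 of 7 melanocyte, 1 of 8 pigment epithelium, 1 of 6 rod, 2 of 9 endothelial and 1 of 7 connective tissue genes (background 1.94%). At 6 h vs control LRAT fell by 1.0 (adjusted p = 2.63e-06), PDE6B fell by 1.24 (2.18e-07), SLC16A8 fell by 0.39 (0.0214), and CCN2 rose by 1.21 (1.44e-05), CNGA1, a rod channel subunit, by 0.57 (0.0489) and ACTN2 by 0.29 (0.0286). Of the 6 rod genes tested, 1 was higher and 5 lower. Of 8 pigment epithelium genes 3 were higher and 5 lower, of 10 striated muscle genes 6 and 4, and of 22 SRF and MRTF genes 11 and 11. Called were 2 of 8 pigment epithelium, 1 of 10 striated muscle and 1 of 22 SRF and MRTF genes, and of 6 rod genes 1 higher and 1 lower (background 2.74%). Against the controls at 24 h, VWF fell by 1.17 (adjusted p = 0.00212), FLT1 fell by 1.07 (0.00675), LUM fell by 1.65 (0.0212), CRYM, from the Mueller glia list, fell by 0.44 (0.0317), and CCN2 rose by 1.06 (0.000398). There 5 of 7 connective tissue genes were higher and 2 lower, and of 9 endothelial genes 4 were higher and 5 lower. Of 6 Mueller glia genes 3 were higher and 3 lower, and of 22 SRF and MRTF genes 13 were higher and 9 lower. Called were 2 of 9 endothelial, 1 of 7 connective tissue, 1 of 6 Mueller glia and 1 of 22 SRF and MRTF genes (background 1.33%). Of these calls, TYRP1 was lost in 14 of 24 settings, CNGA1 in 13, LUM in 10 against 6 h and 7 against the controls, ACTN2 in 8, CRYM in 8, SLC16A8 in 7 and FLT1 at 24 h vs 6 h in 1.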

How the data were processed

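Poly(A) RNA libraries (TruSeq Stranded mRNA, single-end reads) from 16 chicks were trimmed, and the authors aligned them to galGal4 (TopHat2, Bowtie2) before counting with htseq-count; tool versions, annotation and strand option are not given in the sources used here. The deposited values are raw read counts per gene for 17108 genes. Lines naming no gene held 41.9% to 45.9% of each total and were left out. RNA kits differ between labels and paper.

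Counts were analysed with R 4.3.3, edgeR 4.0.16 (TMM, quasi-likelihood, all 16 chicks in 1 fit, at least 10 counts in at least 4 libraries, FDR 5%), limma 3.58.1 and DESeq2 1.42.0, and Python 3.11.15. Log2 CPM used a prior count of 2. SEs are the fold change over the root of F. Scripts were tested on simulated data.

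Alternatives were DESeq2, limma-voom, the likelihood ratio test, RLE factors, no filter, a 1 CPM filter, only the compared groups, libraries thinned to 1553717 counts, each chick left out and, chosen after seeing the data, the ACTA2/ACTG2 row counted as a member. Members and lists were chosen with earlier results of these data known. Named were all members, called list genes (at most 4 per list, direction and comparison in full), 8 fixed genes (MYOCD, SRF, ACTG2, MYL9, CALD1, TPM1, SMTN, VCL) and the 5 genes most alike. Gene names came from the table and RefSeq (GRCg7b); coordinates and sequences were not used here. Intervals of counts cover counting error only, and p-values the spread between these chicks.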

Additional observations from a re-analysis of the deposited data

Results flagged for a closer look

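Of 24 groups of 4 chicks (6 genes in 4 groups), 2 held a chick far from the other 3, and chance gives about 1 in 20. MYH11 in FDMR 0 h chick 10 was 315.2 CPM, with the other 3 at 368.4 to 375.4 CPM (gap 0.883 of the range). DES in control chick 3 was 0.28 CPM, with the other 3 at 2.8 to 3.0 CPM (gap 0.917 of the range).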

How the results depend on the processing

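Members called at 6 h vs 0 h numbered 1 of 5, and 2 with no filter or the 1 CPM filter (TAGLN and LMOD1) and 2 with the ACTA2/ACTG2 row counted. Of all genes, 362 were called as reported, 338 with no filter and 368 with the 1 CPM filter. At 24 h vs 6 h none was called, and 1 (TAGLN) by DESeq2, the likelihood ratio test and the fit of the compared groups. All genes called there numbered 220 as reported, and 340, 378 and 190 in these settings. At 24 h vs 0 h 1 was called, 2 (MYH11 and MYLK) by DESeq2 and the likelihood ratio test, 2 with the ACTA2/ACTG2 row, 0 with limma-voom and thinned libraries, and 1, MYH11 in place of MYLK, with only the compared groups. All genes called there numbered 127 as reported, 194 by DESeq2 and 225 by the likelihood ratio test. They numbered 93 with limma-voom, 94 with thinned libraries and 112 with only the compared groups. The joint test called 2, and 1 (TAGLN) with only the compared groups or thinned libraries, 3 (MYH11 added) by DESeq2 and the likelihood ratio test, 3 (LMOD1 added) with no filter or the 1 CPM filter, and 3 with the ACTA2/ACTG2 row counted. All genes called by it numbered 420 as reported, 407 with only the compared groups and 293 with thinned libraries. They numbered 589 by DESeq2, 677 by the likelihood ratio test, 390 with no filter and 397 with the 1 CPM filter. Leaving out each chick gave 0 to 1 at 24 h vs 6 h, 0 to 1 at 24 h vs 0 h, 0 to 2 in the joint test, 1 at 6 h vs 0 h and 0 in the other comparisons. All genes called in these fits ran from 117 to 297, 64 to 154, 312 to 487 and 268 to 401, in the same order. They ran from 1 to 3 at 0 h vs control, 218 to 328 at 6 h vs control and 92 to 174 at 24 h vs control. Genes called at 6 h vs 0 h ranged over all settings from 1 to 5 in the contractile apparatus list (3 as reported) and 0 to 2 in the signalling list (2 as reported). All genes called in that comparison ranged over the same settings from 262 to 473 (362 as reported). The difference of MYLK at 6 h vs control, near 0, changed sign with DESeq2 (-0.000343), limma-voom (-0.000519), RLE factors (-0.00028), no filter (-0.00166), the 1 CPM filter (-0.00519) and only the compared groups (-0.00365), and ran from -0.0425 to 0.037 with a chick left out. Uncalled differences that also changed sign with a chick left out were the ACTA2/ACTG2 row at 24 h vs 6 h (-0.0364 to 0.32), SYNPO2 at 0 h vs control (-0.0567 to 0.173), and DES at 6 h vs control (-0.631 to 0.00308) and 24 h vs control (-0.079 to 0.416). The cause was not tested. No paired analysis was possible because the chick numbers are not shared between groups. DES, LMOD1, KCNMB1 and MYOCD had at most 36 counts per chick, which limits what can be shown of them.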
